A study of Gallus gallus with 8 samples.

Results

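Genes of glucose breakdown, the tricarboxylic acid (TCA) cycle and the hypoxia response were compared between cranial neural fold and ventral cranial neural plate of the chick embryo. A list of 44 gene names was used, and a gene was included where the array's annotation gave a probe set that name. This found 37 of the 44, out of 13009 named genes on the array. A further 5 names (PGK1, PKM, PKM2, SLC2A3 and PDHA1) stand as synonyms of 4 genes that the annotation calls PGK2, PKLR, SLC2A14 and PDHA2, and these 4 genes are described beside the 37 but not counted with them. For ALDOA and CS no probe set carried the name.

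Total RNA came from cranial neural folds, whose cells later form neural crest and dorsal neural tube, and from ventral neural plate, the midline part of the future brain floor. Each tissue has 4 samples, 1 Affymetrix chicken genome array each. The chicken (Gallus gallus) embryos were at Hamburger-Hamilton stage 8 and dissected without any drug or genetic treatment named in the labels, which give no strain or sex. The submitters state 80 to 114 embryos with n = 4 and do not say how embryos were divided over samples, so p-values cover only the spread between these samples, which may be partly technical.

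Marker genes of both tissues, and of notochord and endoderm next to the neural plate, were read in the samples. PAX7, a regulator of the neural plate border, was 6.14 ± 0.31 higher on the log2 scale in neural fold (SE, limma adjusted p = 0.00015), and lay above background on 4 of 4 neural fold and 1 of 4 neural plate arrays. SNAI2, a neural crest factor, was 4.65 ± 0.27 higher. SHH, the ventralising signal, had a log2 change of -2.31 ± 0.27, TBXT, the notochord factor brachyury, one of -3.72 ± 0.16, and SOX17, an endoderm factor above background on 1 of 4 neural fold arrays, one of -2.70 ± 0.29. The arrays numbered 1 stood apart: their median intensity was 195.8 (neural fold) and 182.3 (neural plate), while the remaining 6 arrays had medians of 105.4 to 121.7. The trimmed mean intensity was 500.1 on every array, so the deposited values already shared a common scale. Background limits were 134.71 and 128.57 on the arrays numbered 1, against 32.29 to 82.68 on the others. All values below are log2(intensity + 16) after quantile normalization, changes are neural fold minus neural plate, and a gene passed the test at a limma adjusted p below 0.05 over all 23063 tested probe sets.

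Glycolysis splits glucose into pyruvate in the cytosol. Pyruvate is either reduced to lactate by lactate dehydrogenase or carried into mitochondria, where the pyruvate dehydrogenase complex feeds it into the TCA cycle. When oxygen is low, the transcription factor subunit HIF1A escapes breakdown and raises many glycolytic genes together with genes of blood vessel growth and matrix modification. Early embryos and proliferating neural tissue are known for high glycolytic activity.

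Of the 37 genes, 36 were bright enough to be tested. In neural fold 1 of them, LDHA, fell and 0 rose, where 0.585% of all tested probe sets were lower, 0.694% higher and 1.28% either. The change of the remaining 35 did not pass, and the 36 changes ran from -2.39 to 0.47 with a median of -0.09, against -0.00 for all tested probe sets. Of the 36, 24 had a change below 0 (50.1% of all tested probe sets did). In 8 genes (LDHA, P4HA1, SLC2A1, GPI, BNIP3, PGAM1, PDK1 and TPI1) all 4 neural fold arrays lay below all 4 neural plate arrays, as did 3.59% of all tested probe sets, and 0 genes showed the opposite (3.12%). This holds for the probe set with the highest mean, while the second probe sets of P4HA1, BNIP3 and PDK1 overlapped. These counts depended on scaling. With the values as deposited 6 genes were lower without overlap (3.71% of probe sets were) and 1 was higher. With each array centred on its median 1 was lower (2.43%) and 0 higher. The share of all probe sets higher without overlap was not counted under these scalings. With both of these scalings 20 of the 36 had a change below 0. The median of the 36 was then -0.07, against -0.01 for all tested probe sets. With the values as deposited 1 member was called lower (0.681% of probe sets) and 0 higher (0.715%, and 1.4% either). A term for the arrays numbered 1 gave 4 lower members, LDHA, GPI, BNIP3 and P4HA1 (2.07%), and 0 higher (1.67%, and 3.74% either).

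**Figure D1:**
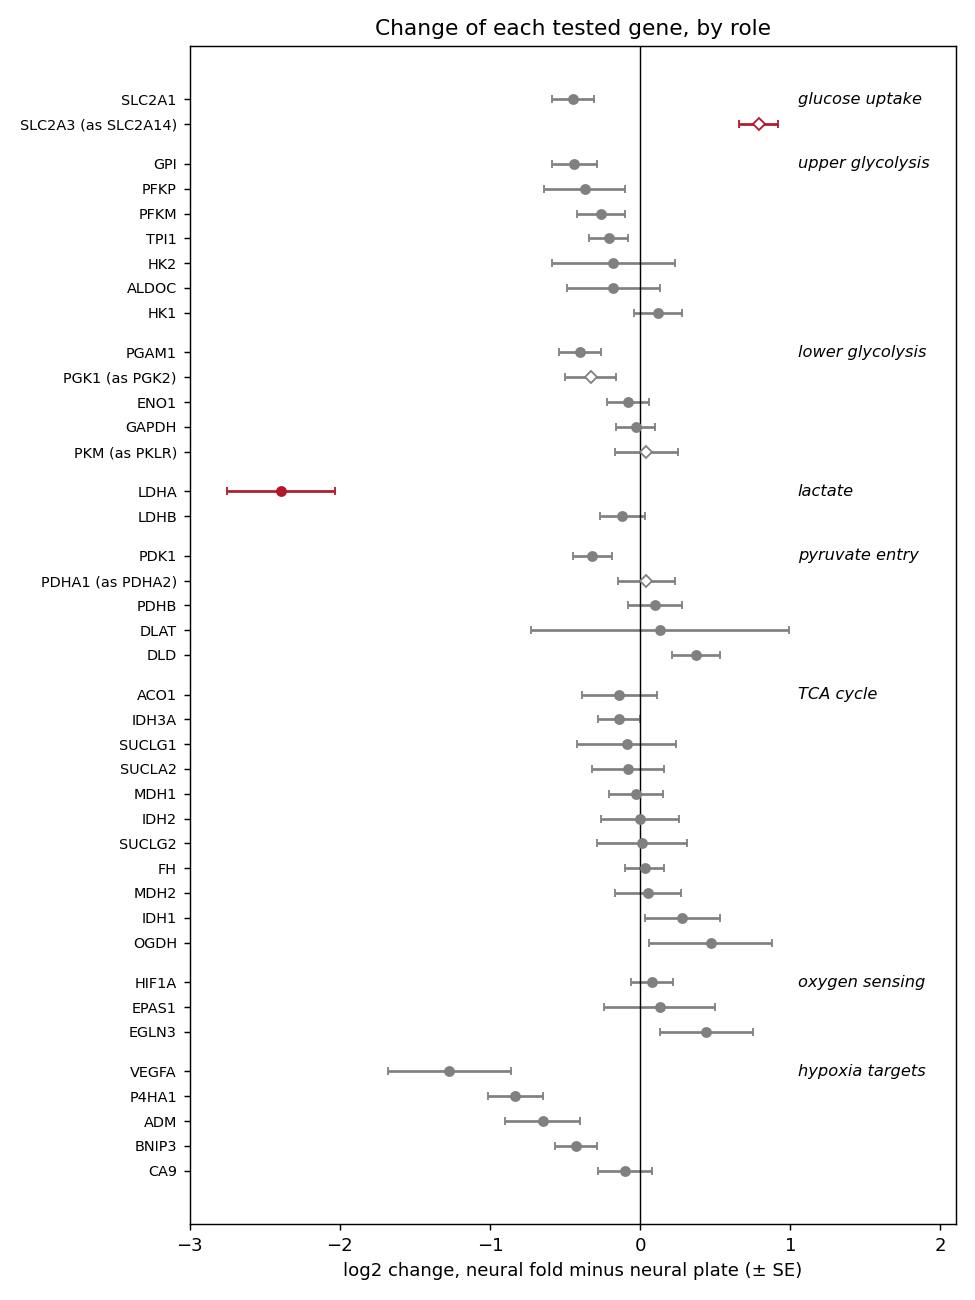
Log2 change (neural fold minus neural plate, ± SE from limma, 4 arrays per tissue) of the 36 tested genes and of the 4 genes matched by a synonym (open diamonds), grouped by role. LDHA at -2.39 and SLC2A3 at 0.79, both in red, passed the test, and the TCA cycle genes lie around 0.

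LDHA encodes the A (muscle-type) subunit of lactate dehydrogenase, which favours the reduction of pyruvate to lactate. Its values were 9.63, 10.92, 10.76 and 10.86 on the 4 neural fold arrays, against 12.19, 13.07, 13.10 and 13.38 on the neural plate arrays. All neural fold arrays lay below all neural plate arrays, and the array numbered 1 was the lowest of each tissue. As deposited, before normalization, the intensities were 779.5 to 1999 in neural fold and 4197 to 10659 in neural plate. LDHA fell by 2.39 ± 0.36 (SE, n = 4 each, limma adjusted p = 0.017), which is 5.26-fold, with a 95% interval of -3.22 to -1.57. The difference within each number was alike, at -2.56, -2.16, -2.34 and -2.53 for numbers 1 to 4. With the number as a block the limma adjusted p was 0.0062, but the labels do not say that same-numbered arrays belong together. The call was lost, with adjusted p between 0.05 and 0.069 and changes of -2.49 to -2.25, when neural fold array 3 or 4 or neural plate array 2, 3 or 4 was left out. It was also lost with median centring (-2.34, adjusted p = 0.15). Only 1 probe set measured LDHA, and in tissue pieces fewer cells of a type and less RNA per cell cannot be told apart.

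LDHB, the B (heart-type) subunit, did not pass the test. It lay at 15.83, 15.68, 15.63 and 15.51 in neural fold and at 15.99, 15.72, 15.66 and 15.75 in neural plate. The tissues overlapped, and the change was -0.12 ± 0.15 (limma adjusted p = 1.0), with a 95% interval of -0.46 to 0.23. The log2 difference between LDHA and LDHB within an array averaged -5.12 ± 0.72 for neural fold and -2.84 ± 0.65 for neural plate (SD, n = 4), a difference of -2.28. The exact two-sided permutation p was 0.0286, the smallest that 4 against 4 arrays allow, and 0.0715 after adjustment over 5 pairs of genes, which did not pass. So few arrays left the adjusted test little room to pass, so it does not show that both genes changed alike. As LDHB changed little, the pair test largely repeats the LDHA result. The pair was also chosen with earlier results of these data known. Without neural fold array 1 the difference was -1.92 (exact permutation p = 0.0571).

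SLC16A3, a monocarboxylate transporter known for lactate export and not one of the 37, fell as well. Its values were 9.32, 9.60, 9.80 and 9.70 in neural fold, against 10.39, 10.85, 10.76 and 10.97 in neural plate, with no overlap. The change was -1.14 ± 0.18 (limma adjusted p = 0.024), or 2.20-fold. It was not past the test without neural fold array 2, 3 or 4 or neural plate array 2, 3 or 4 (adjusted p = 0.063 to 0.098), with no filter on dim probe sets (0.075), with median centring (0.44) or with its probe sets averaged (-0.68, adjusted p = 0.098). A second SLC16A3 probe set lay below background on every array and was not tested. SLC16A1, a related lactate and pyruvate transporter, had a change of -0.03 ± 0.22 (adjusted p = 1.0).

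Some markers of tissues next to the neural plate, and of neural tissue itself, fell, as LDHA and SLC16A3 did. Of 6 notochord and prechordal plate markers 3 fell in neural fold and 0 rose, and their summed intensity was 1404 to 1736 in neural fold and 11333 to 17681 in neural plate. CHRD, which changed by -4.45 ± 0.33, was the brightest of these in neural plate and weighed most on the sum there. Of 5 tested endoderm markers (of 7) 1 fell (2 with the number as a block), with sums of 1303 to 2419 in neural fold and 2993 to 4204 in neural plate. APOA1 was the brightest of these in neural plate and weighed most on the sum there. Its change of -1.42 ± 0.36 passed only with the block (limma adjusted p = 0.16 in the main fit and 0.012 with the block). The changes of HHEX (-0.16), FOXA1 (-0.37) and TTR (0.43) did not pass. Of 5 tested blood and endothelial markers (of 8) 0 passed, with sums of 520.3 to 928.8 in neural fold and 1129 to 2464 in neural plate. One of these, LMO2, a blood and endothelial factor, lay at 6.52, 8.03, 8.02 and 8.16 in neural fold and at 9.09, 10.27, 10.26 and 10.68 in neural plate. Its change of -2.39 ± 0.46 lay at the threshold (limma adjusted p = 0.050) and passed with the number as a block (0.0062). LMO2 was the brightest of its list in neural plate and so weighed most on the sum there. The other tested markers of this list changed by -1.06 (TAL1), -1.01 (FLI1), -0.27 (KDR) and 0.06 (GATA2), and did not pass. Without both arrays numbered 1, where 2.52% of probe sets passed, FLI1 passed (-1.52, limma adjusted p = 0.0082), as did LMO2 (0.002). TAL1, KDR and GATA2 did not, and FLI1 did not pass with the number as a block (0.30). Of 6 tested head mesoderm markers (of 9) 0 passed and 2 had a change below 0 (median 0.05), with sums of 1525 to 1960 in neural fold and 1651 to 2351 in neural plate. One of these, TWIST1, was lower in neural fold without overlap (-1.98 ± 0.53, limma adjusted p = 0.18). TWIST1 passed with a term for the arrays numbered 1 (0.036), where 3.74% of all tested probe sets did. It did not pass with the number as a block (0.097), as deposited (0.054) or with median centring (0.22). The other tested markers of this list changed by -0.29 (PRRX1) to 1.17 (TBX1). Of 6 ventral neural markers 5 fell (6 with the number as a block) and 0 rose, with sums of 1577 to 2238 in neural fold and 10544 to 13163 in neural plate. Of 6 pan-neural markers 2 fell, SOX2 and CDH2, 0 rose and 5 had a change below 0 (median -0.55). Their sums overlapped, at 34067 to 47329 in neural fold and 35686 to 49249 in neural plate. No measured marker of these lists lay at or below background on all 8 arrays. The part of these tissues in the differences of LDHA, SLC16A3 and the hypoxia targets was not tested.

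Of the glucose transporters, SLC2A3 rose and SLC2A1 did not pass. SLC2A1, the widely expressed transporter GLUT1, lay at 11.46, 11.45, 11.50 and 11.75 in neural fold and at 11.88, 11.94, 12.09 and 12.05 in neural plate. The tissues did not overlap, but the change of -0.45 ± 0.14 did not pass the test (limma adjusted p = 0.32, 95% interval -0.78 to -0.12). The gene with SLC2A3, the transporter GLUT3, among its RefSeq synonyms, listed on the array as SLC2A14, rose in neural fold. It lay at 11.00, 10.94, 10.95 and 11.01 in neural fold and at 10.24, 10.06, 10.16 and 10.28 in neural plate, a tight separation with all neural fold arrays higher. Its change was 0.79 ± 0.13 (limma adjusted p = 0.028, and 0.035 with the number as a block), or 1.73-fold.

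The SLC2A3 call was lost with no filter (0.12), with median centring (0.67), with the mean of its probe sets (0.084) and without neural fold array 2, 3 or 4 or neural plate array 2, 3 or 4 (0.092 to 0.12). Its second probe set changed by 0.33 ± 0.23 (adjusted p = 0.92). The log2 difference between SLC2A1 and SLC2A3 within an array averaged 0.56 ± 0.12 for neural fold and 1.80 ± 0.13 for neural plate (SD, n = 4). The difference of -1.24 had an exact two-sided permutation p of 0.0286, the smallest possible, and of 0.0715 adjusted over the 5 pairs, which did not pass. Here too the adjusted test had little room to pass. Each gene alone separated the tissues, in opposite directions, so their difference had to separate them and adds no independent evidence. SLC2A3 was looked up by synonym after the files were seen. Markers of neural fold and of non-neural ectoderm moved in the same direction as SLC2A3. Of 7 neural fold markers 7 rose, with summed intensities of 30362 to 38610 in neural fold and 2377 to 3070 in neural plate. Of 5 non-neural ectoderm markers 3 rose and 0 fell, with sums of 16524 to 19742 in neural fold and 8971 to 10641 in neural plate. EPCAM, the brightest of these 5, did not pass (0.47 ± 0.14, limma adjusted p = 0.27). The part of these cell types in the SLC2A3 difference was not tested.

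**Figure D2:**
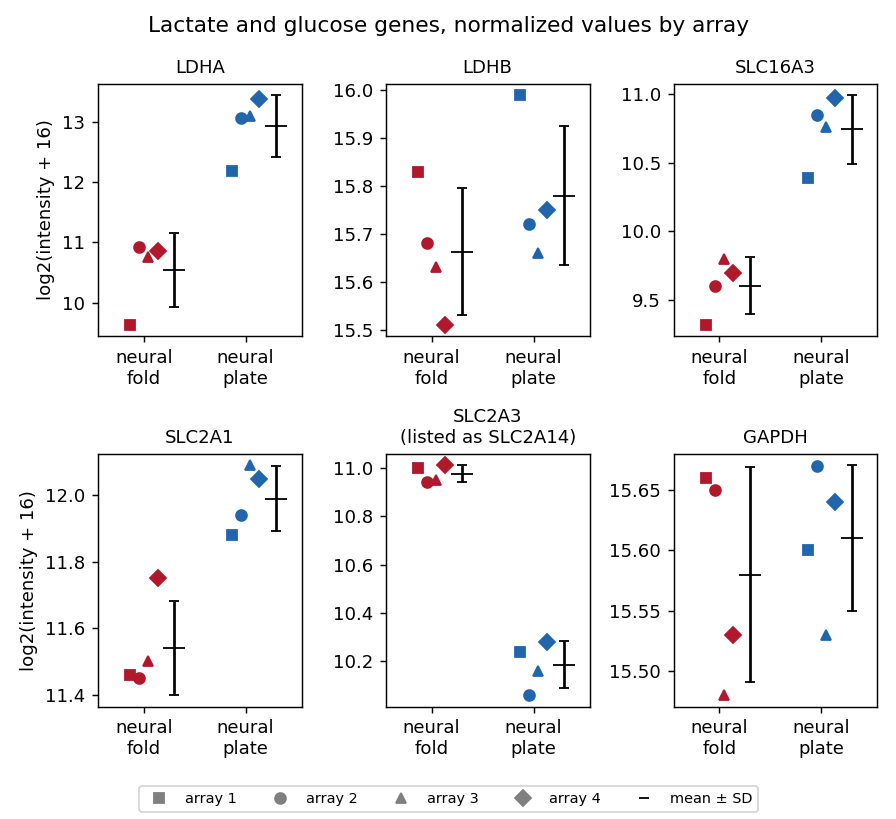
Values of LDHA, LDHB, SLC16A3, SLC2A1, SLC2A3 and GAPDH on each of the 4 neural fold (left, red) and 4 neural plate (right, blue) arrays, as log2(intensity + 16) after normalization, with mean and SD; each panel has its own axis. LDHA lies at 9.63 to 10.92 in neural fold and 12.19 to 13.38 in neural plate, SLC2A3 is higher in neural fold, and LDHB and GAPDH overlap.

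The enzymes of upper glycolysis, which trap and split glucose, gave 0 calls in either direction among 7 tested genes, of which 6 had a change below 0 (median -0.21). GPI, which converts glucose 6-phosphate to fructose 6-phosphate, lay at 13.43, 13.79, 13.75 and 13.62 in neural fold and at 13.95, 14.11, 14.12 and 14.15 in neural plate. The neural fold arrays were all lower, yet the change of -0.44 ± 0.15 did not pass (limma adjusted p = 0.36). The 2 other GPI probe sets also separated the tissues, at -0.48 ± 0.14 and -0.60 ± 0.14 (adjusted p = 0.26 and 0.12). PFKP, the platelet form of phosphofructokinase, which commits sugar to glycolysis, changed by -0.37 ± 0.27 with overlap, while 1 of its 2 other probe sets did not overlap (-0.60 ± 0.14, adjusted p = 0.12).

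PFKM, the muscle form of phosphofructokinase, lay at 7.56, 7.63, 7.27 and 7.44 in neural fold and at 7.54, 7.89, 7.86 and 7.67 in neural plate (-0.26 ± 0.16, limma adjusted p = 0.85). The tissues overlapped. TPI1, which interconverts the triose phosphates, lay at 14.01, 13.97, 13.99 and 13.93 in neural fold and at 14.19, 14.20, 14.09 and 14.27 in neural plate. Its arrays did not overlap, by a narrow margin, and its change was -0.21 ± 0.13 (adjusted p = 0.85). HK1 and HK2, hexokinases that phosphorylate glucose, had changes of 0.12 ± 0.16 and -0.18 ± 0.41, and ALDOC, an aldolase, one of -0.18 ± 0.31. The pairs HK1 and HK2 (0.30, exact permutation p = 0.514) and PFKP and PFKM (-0.10, exact permutation p = 0.771) did not pass.

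In lower glycolysis, where ATP is made, 0 of 3 tested genes passed. PGAM1, phosphoglycerate mutase, lay at 13.91, 13.61, 13.78 and 13.83 in neural fold and at 14.23, 14.11, 14.20 and 14.18 in neural plate, without overlap (-0.40 ± 0.14, limma adjusted p = 0.38). GAPDH, which oxidises glyceraldehyde 3-phosphate, lay at 15.66, 15.65, 15.48 and 15.53 in neural fold and at 15.60, 15.67, 15.53 and 15.64 in neural plate. The tissues overlapped, and the change was -0.03 ± 0.13 (adjusted p = 1.0, 95% interval -0.33 to 0.27), turning to 0.05 as deposited or median centred. ENO1, enolase, had a change of -0.08 ± 0.14.

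PGK1, phosphoglycerate kinase, listed as PGK2, lay at 14.50, 14.13, 13.98 and 13.93 in neural fold and at 14.62, 14.41, 14.33 and 14.50 in neural plate (-0.33 ± 0.17, limma adjusted p = 0.76). It was lower in neural fold within each number, but the tissues overlapped. PKM, pyruvate kinase, listed as PKLR, lay at 15.71, 15.19, 15.14 and 15.14 in neural fold and at 15.68, 15.17, 15.07 and 15.10 in neural plate (0.04 ± 0.21, adjusted p = 1.0). Its array numbered 1 was the highest in both tissues.

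**Figure D3:**
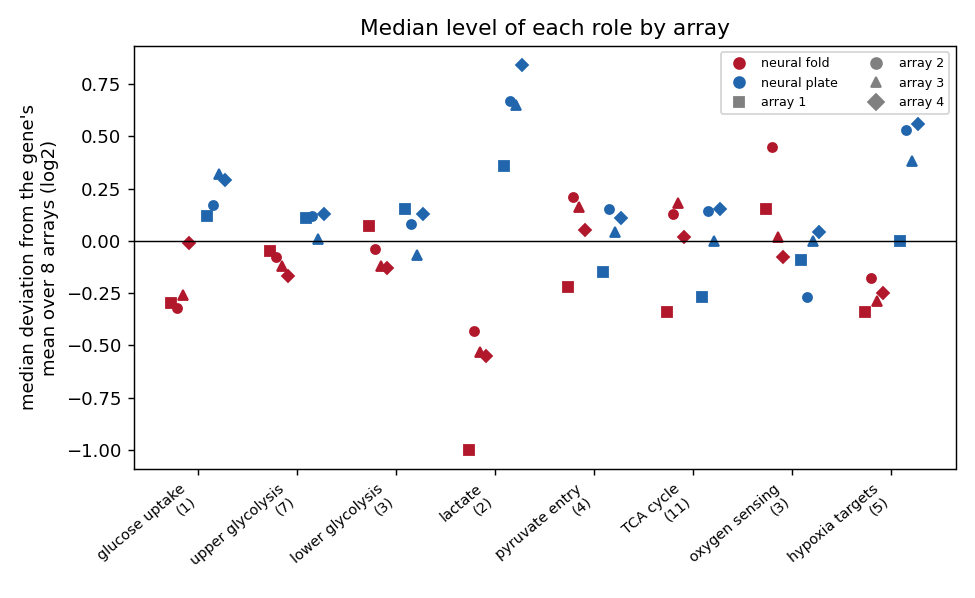
Median over the tested genes of each role (number of genes in brackets) of their deviation from their mean over all 8 arrays, on the log2 scale, for each neural fold (left, red) and neural plate (right, blue) array. The genes grouped here as hypoxia targets, without PDK1 and EGLN3, lie at -0.34 to -0.18 in neural fold and -0.00 to 0.56 in neural plate. TCA cycle genes overlap and are lowest on the arrays numbered 1 of both tissues.

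Entry of pyruvate into the TCA cycle gave 0 calls among 4 tested genes. PDK1, a kinase that switches off pyruvate dehydrogenase and a known HIF1A target, lay at 11.79, 11.79, 11.92 and 11.77 in neural fold and at 12.02, 12.18, 12.11 and 12.24 in neural plate. It was lower on every neural fold array, but its change of -0.32 ± 0.13 did not pass (limma adjusted p = 0.55). A second PDK1 probe set overlapped between the tissues (-0.32 ± 0.18, adjusted p = 0.83). DLD, the dihydrolipoamide dehydrogenase subunit shared by the pyruvate and oxoglutarate complexes, lay at 11.20, 10.99, 11.01 and 10.87 in neural fold and at 10.94, 10.47, 10.59 and 10.60 in neural plate (0.37 ± 0.16, adjusted p = 0.61).

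DLD was higher in neural fold within every number, as 11.9% of probe sets were, and its 3 other probe sets had changes of 0.39 to 0.52, 1 of them without overlap, and did not pass. The pyruvate dehydrogenase subunits PDHB and DLAT had changes of 0.10 ± 0.18 and 0.13 ± 0.86, and PDHA1, listed as PDHA2, one of 0.04 ± 0.19. PC, pyruvate carboxylase, lay at or below background on all 8 arrays and was not tested.

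None of the 11 tested TCA cycle genes passed in either direction, and their median change was -0.00. In 6 of them the change lay below 0. FH, fumarase, had a change of 0.03 ± 0.13 (95% interval -0.28 to 0.33), and the mitochondrial malate dehydrogenase MDH2 one of 0.05 ± 0.22 (95% interval -0.46 to 0.56). The succinyl-CoA ligase subunits SUCLG1, SUCLG2 and SUCLA2 had changes of -0.09, 0.01 and -0.08, and the isocitrate dehydrogenase subunit IDH3A one of -0.14 ± 0.14. OGDH, a subunit of the oxoglutarate dehydrogenase complex, had the highest change of the 11, 0.47 ± 0.41 (limma adjusted p = 0.99). It was higher in neural fold within each number, but its interval of -0.47 to 1.42 was wide, with 11.35 and 11.14 on the arrays numbered 1 in neural fold and neural plate against 9.58 to 10.53 on the others.

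The list also held enzymes that act outside mitochondria. ACO1, the cytosolic aconitase that doubles as an iron regulatory protein, had a change of -0.14 ± 0.25, IDH1, the cytosolic isocitrate dehydrogenase, one of 0.28 ± 0.25, and MDH1, the cytosolic malate dehydrogenase, one of -0.03 ± 0.18. IDH2, the mitochondrial NADP-dependent form, had a change of -0.00 ± 0.26.

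HIF1A, EPAS1 and EGLN3, grouped here as oxygen sensing, did not pass. HIF1A lay at 12.15, 12.14, 11.96 and 11.92 in neural fold and at 11.91, 11.91, 11.98 and 12.04 in neural plate (0.08 ± 0.14, limma adjusted p = 1.0, 95% interval -0.23 to 0.39). The tissues overlapped, while a second HIF1A probe set was higher on all neural fold arrays (0.27 ± 0.16, adjusted p = 0.83). HIF1A is known to be controlled mainly at the protein level, which arrays do not measure. EPAS1, its relative HIF-2 alpha, lay above background on only 2 arrays of each tissue (0.13 ± 0.37), and the HIF1A and EPAS1 pair did not pass (difference -0.05, exact permutation p = 0.914). EGLN3, a prolyl hydroxylase that marks HIF subunits for breakdown, had a change of 0.44 ± 0.31.

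All 5 members grouped here as hypoxia targets had a change below 0 (median -0.65), and 0 passed. The shared direction depends on this grouping. Hypoxia response genes placed under other roles went both ways, with PDK1 at -0.32 and EGLN3 at 0.44. P4HA1, a subunit of collagen prolyl hydroxylase, lay at 10.20, 10.63, 10.67 and 10.68 in neural fold and at 11.11, 11.49, 11.37 and 11.54 in neural plate. The tissues did not overlap, and the change was -0.83 ± 0.18 (limma adjusted p = 0.082, 95% interval -1.24 to -0.43). P4HA1 passed with the replicate number as a block (adjusted p = 0.034), where 2 of the 36 genes were lower against 0.872% of all tested probe sets. Its second probe set changed by -0.55 ± 0.30, with overlap (adjusted p = 0.78).

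VEGFA, the main growth factor of blood vessels, lay at 6.61, 7.06, 5.46 and 7.28 in neural fold and at 7.23, 8.03, 7.98 and 8.23 in neural plate. Neural fold array 4 overlapped neural plate array 1, only 2 neural fold arrays lay above background, and the change of -1.27 ± 0.41 did not pass (limma adjusted p = 0.33). ADM, the vasodilator peptide adrenomedullin, lay at 6.63, 6.57, 6.56 and 6.35 in neural fold and at 6.47, 7.57, 7.23 and 7.41 in neural plate (-0.65 ± 0.25, adjusted p = 0.47). Neural plate array 1 lay among the neural fold arrays. ADM lay above background on 2 neural fold and 3 neural plate arrays, and without both arrays numbered 1 it passed (-0.94, adjusted p = 0.029), as did LDHA and P4HA1. These are 3 lower members against 1.34% of all tested probe sets, and 0 were higher against 1.18% (2.52% either).

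BNIP3, a mitochondrial protein that promotes removal of mitochondria, lay at 10.18, 10.39, 10.37 and 10.26 in neural fold and at 10.57, 10.85, 10.73 and 10.77 in neural plate. The tissues did not overlap, and the change was -0.43 ± 0.14 (limma adjusted p = 0.34). A second BNIP3 probe set overlapped between the tissues (-0.70 ± 0.35, adjusted p = 0.72). CA9, a carbonic anhydrase that regulates pH outside the cell, had a change of -0.10 ± 0.18 (adjusted p = 1.0).

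**Figure D4:**
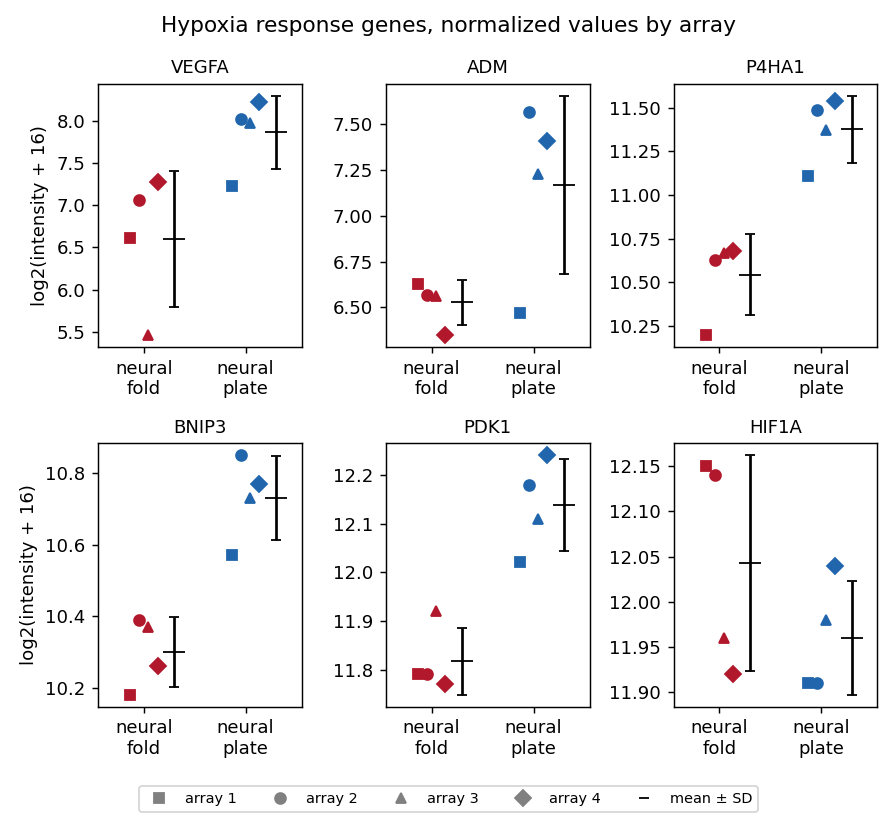
Values of VEGFA, ADM, P4HA1, BNIP3, PDK1 and HIF1A on each neural fold (left, red) and neural plate (right, blue) array, as log2(intensity + 16) after normalization, with mean and SD; each panel has its own axis. On the probe sets plotted, P4HA1, BNIP3 and PDK1 do not overlap between the tissues, ADM overlaps through neural plate array 1, and HIF1A overlaps in part.

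Of 77 other genes of these pathways, 59 were measured and 50 tested. In neural fold 1 fell, SLC16A3, and 0 rose, with a median change of -0.02. Of all tested probe sets 0.585% were lower, 0.694% higher and 1.28% either. In 5 of the 50 (SLC16A3, STC2, ME1, ERO1A and INSIG2) neural fold was lower without overlap, as in 3.59% of all tested probe sets. The opposite held for 0 (3.12%). The change lay below 0 in 28 of the 50, where 50.1% of all tested probe sets did so. By list these were 14 of 20 hypoxia genes, 9 of 15 genes of glycolysis and sugar handling, 4 of 12 of pyruvate handling and the TCA cycle and 1 of 3 of the pentose phosphate pathway, and the lists were not tested against each other. PLOD1, of the hypoxia list, had the highest change of the 50, 0.44 ± 0.16 with overlap (limma adjusted p = 0.44). STC2, a secreted glycoprotein induced by hypoxia and stress, changed by -1.32 ± 0.28 without overlap (limma adjusted p = 0.077). ME1, the cytosolic malic enzyme, which turns malate into pyruvate, changed by -0.89 ± 0.23 without overlap (adjusted p = 0.17). Both passed with the number as a block (0.024 and 0.035), where 1.73% of probe sets did, and with the values as deposited (0.044 and 0.031), where 1.4% did. Neither passed with median centring (0.40 and 0.59). A second STC2 probe set was lower in neural fold without overlap but did not pass (-1.84 ± 0.58, limma adjusted p = 0.32). SLC16A1, LMO2, TWIST1, PRRX1, TBX1, STC2, ME1, ERO1A, INSIG2 and PLOD1 were named, and TPI1 and LMO2 given by array, after their values were seen. The same holds for naming APOA1, HHEX, FOXA1, TTR, TAL1, FLI1, KDR, GATA2 and EPCAM.

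**Figure D5:**
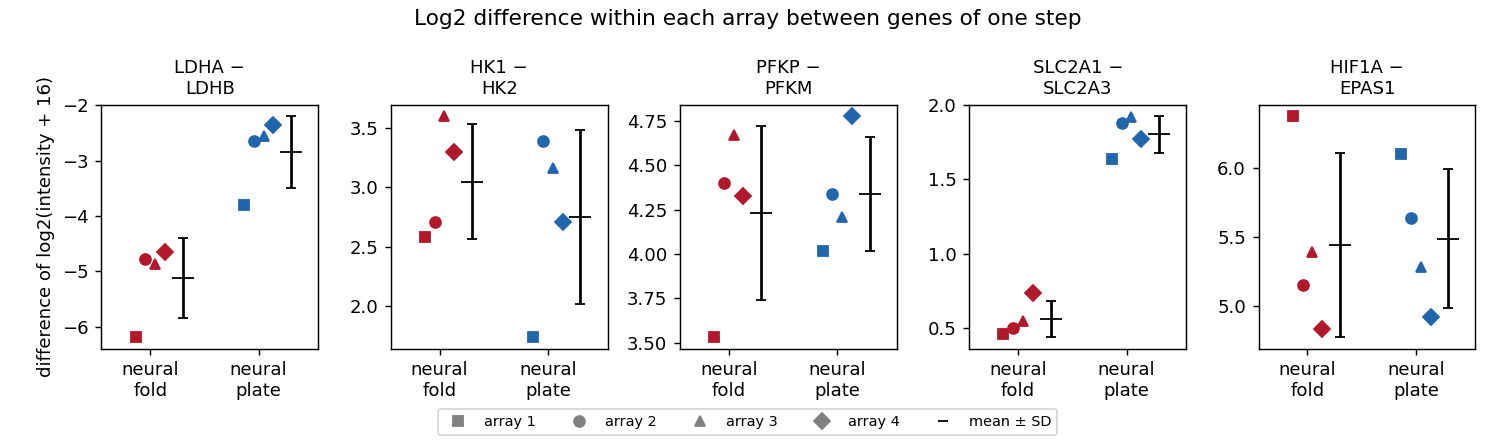
Log2 difference within each array between the genes of a pair, for 4 neural fold (left, red) and 4 neural plate (right, blue) arrays, with mean and SD; each panel has its own axis. LDHA minus LDHB lies at -6.19 to -4.65 in neural fold and -3.80 to -2.36 in neural plate, SLC2A1 minus SLC2A3 also separates the tissues, and the other 3 pairs overlap.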

How the data were processed

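The authors deposited a linear intensity for every probe set on each array, computed in GCOS per the submitters' processing notes (settings not given in the sources used here). The 96 Affymetrix control probe sets were left out, 16 was added, values were log2 transformed and, since array medians differed by 0.80, quantile normalized. Probe sets with a mean at or above the 40th percentile were tested with limma 3.58.1 in R 4.3.3 (Benjamini-Hochberg over 23063), and the script was tested on simulated data. An array's background limit was the 95th percentile over 59 controls that match bacterial or tag sequence. On the normalized scale it was 6.50 to 6.65 in neural fold and 5.82 to 6.65 in neural plate. Above it lay 59.9% to 62.7% of probe sets in neural fold and 59.8% to 73.9% in neural plate. Counts of arrays above background are therefore not strictly comparable between the tissues. The number of arrays limits the precision.

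Symbols came from the platform annotation, and synonyms from a RefSeq table (GRCg7b) by gene ID. The probe set with the highest mean stood for a gene. Of 25 other tested probe sets of the members, 21 had a change of the same sign and 0 passed. Deviations from tissue means of same-numbered arrays correlated at 0.623, 0.193, 0.290 and 0.214. Each was over 0.1, so the numbers were taken as pairs for the block alternative. Among arrays 2 to 4, differently numbered arrays correlated at 0.077 to 0.284, so this rule cannot tell pairs from other combinations there. Neural fold array 2 and neural plate array 4 correlated best with each other (0.284). The labels do not say that a number marks a pair, and the main fit did not use the numbers. By rule, genes given by array were those past the test, the next 10 by p, and GAPDH, LDHB, HIF1A, SLC2A1, PGK1 and PKM. Members, lists and pairs were chosen with earlier results of these data known. Alternatives covered scaling, pseudocount, filter, variance trend, block and left-out arrays. No sequences are shown.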

Additional observations from a re-analysis of the deposited data

Results flagged for a closer look

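In 5 of 36 groups of 4 arrays checked (18 genes in each tissue), the lowest or highest array stood far from the others by Dixon's gap to range ratio at its 95% critical value, where chance gives about 1 in 20. In neural fold the array numbered 1 was low for LDHA (ratio 0.879) and P4HA1 (0.896). PKM, listed as PKLR, was high on the array numbered 1 in neural fold (0.913) and in neural plate (0.840). PDK1 was high on neural fold array 3 (0.844).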

How the results depend on the processing

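Of all tested probe sets, 295 passed in either direction, against 151 with median centring and 863 with a term for the arrays numbered 1. Without both of these arrays 582 passed, and with 1 array left out 145 to 305. The replicate block gave 398, the intensity trend 377, and the filter at the 60th percentile 352 of 15376. Members lower in neural fold numbered 1 (LDHA), against 0 with median centring, 2 (LDHA and P4HA1) with the filter at the 60th percentile, an intensity trend or the replicate block, 4 (with GPI and BNIP3 added) with the term, 3 without both arrays numbered 1, and 0 to 2 with 1 array left out, where ADM was added without neural plate array 1. Members higher numbered 0 under all of these, and 1 (SLC2A3) with synonym matches, an alternative chosen after seeing the data. Other pathway genes past the test numbered 1, against 0 with median centring, with no filter or with probe sets averaged by gene, 2 with the 60th percentile or the trend, 3 as deposited, with the block or without both arrays numbered 1, 5 with the term, and 0 to 2 with 1 array left out. Pseudocounts of 1 and 64 gave the same member and pathway counts. GAPDH turned to 0.05 as deposited and with median centring and to 0.01 without neural fold array 3 (-0.06 to 0.01 with 1 array left out). PKM turned to -0.10 without neural fold array 1, and to -0.02 and -0.01 without neural plate arrays 3 and 4 (-0.10 to 0.18 with 1 array left out). The other single-gene changes recomputed kept their sign under the alternatives run, and the causes were not tested. The block changed no other named member's call. The 2 pairs with an exact permutation p of 0.0286 kept it under both other scalings; with 1 array left out 1 to 2 pairs were below 0.05. Without both arrays numbered 1 the pair test cannot reach 0.05, and pairs were not run with other pseudocounts or the block.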
